A study of Mus musculus with 6 samples.

Results

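Collagen chains and the proteins that fold, modify, cut and cross-link them were followed in HT22 cells, a mouse hippocampal neuronal line kept in culture, with and without interleukin 17 (IL-17). Members were the protein-coding genes of the deposited table named Col with a type and chain number, plus 16 genes of collagen processing and of the matrix around collagen. These are the lysyl oxidases Lox, Loxl1, Loxl2, Loxl3 and Loxl4, the lysyl hydroxylases Plod1, Plod2 and Plod3, and Serpinh1, Bmp1, Pcolce, Sparc, Fn1, Dcn, Lum and Postn. The rule found 57 of the 26595 genes in the table, 41 of them collagen chains. Polyadenylated RNA was sequenced in 6 libraries, all of wild-type HT22 cells. The treatment label puts 3 libraries in a group exposed to IL-17, a cytokine made mainly by T cells, and 3 in an untreated control group. The treatment protocol text, however, names IL-17 exposure for all 6 samples. The groups here rest on the treatment label, so what IL-17 against control means depends on that label being right. The sources used here state neither dose nor duration. The study set out to examine a link between IL-17 and the JAK1-STAT6 pathway. Nothing in the labels says that the libraries of a group came from separate cultures, so p-values reflect the spread between libraries and that spread may be technical.

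Collagens are secreted proteins of 3 chains wound into a helix. Fibrillar collagens (types I, III and V here) build fibres, type IV builds the sheet of the basement membrane, and type VI builds beaded filaments. Inside the cell, lysyl hydroxylases modify the chains and the chaperone Serpinh1 (HSP47) holds the folded helix. Outside it, Bmp1, helped by Pcolce, cuts the C-terminal propeptide from fibrillar procollagen, and lysyl oxidases start the cross-links between collagen molecules. In the brain, collagen lies mainly in basement membranes, meninges and vessels.

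The libraries did not look neuronal by the markers listed for that check. Of 12 neuronal markers, 9 were in the table and 1, Tubb3, averaged at least 1 FPKM (fragments scaled by transcript length and by the number mapped, so a level per length). Of 12 fibroblast and mesenchymal markers, 8 averaged at least 1 FPKM. That list summed to between 2557 and 3021 FPKM per library, most of it S100a4 (2204 to 2595 FPKM). Of its 9 tested genes, 3 were lower with IL-17 and 0 higher by limma. For this, p was adjusted over all tested genes with a threshold of 0.05, which 0.996% of them passed as lower and 0.95% as higher. Differences were below 0 for 5 of the 9 and above 0 for 4. Among the latter, Thy1 and Pdgfra had every IL-17 value above the controls, and neither passed. Acta2, smooth muscle actin, fell by 0.45 on the log2 scale (adjusted p = 0.00528 by limma), Cd34 fell by 0.43 (adjusted p = 0.028) and Vim, vimentin, fell by 0.30 (adjusted p = 0.0334). With 1 library left out, Acta2 passed in 6 of 6 fits, Cd34 in 1 and Vim in 0. Of 8 macrophage and microglia markers, 2 averaged at least 1 FPKM. They summed to between 259 and 307 FPKM per library, most of it Cd68 (236 to 285 FPKM). Transcripts typical of other organs were uneven between libraries. The 13 lung epithelial markers summed to 66.2 to 172.1 FPKM after IL-17 and 5.45 to 63.2 in controls, and the 14 liver markers to 19.5 to 137.1 and 73.2 to 127.6 FPKM. In bulk RNA, fewer cells of a type and less RNA per cell cannot be told apart. Over the 6 libraries, the 57 members took 0.267% to 0.322% of all FPKM.

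Upstream sequence is shown for the member whose difference passed the test, Loxl4, and for 2 members whose level varied widely within both groups, Col1a2 and Serpinh1. Capitals mark matches to a GC box (GGGCGG) or a CCAAT box (CCAAT), searched on both strands together with TATAAA and with the AP-1 motif TGANTCA. Each is the 250 bases before the start of the gene in RefSeq (GRCm38.p6), written 5′ to 3′ on the strand of the gene.
Loxl4, chr19:42612807-42613056, minus strand: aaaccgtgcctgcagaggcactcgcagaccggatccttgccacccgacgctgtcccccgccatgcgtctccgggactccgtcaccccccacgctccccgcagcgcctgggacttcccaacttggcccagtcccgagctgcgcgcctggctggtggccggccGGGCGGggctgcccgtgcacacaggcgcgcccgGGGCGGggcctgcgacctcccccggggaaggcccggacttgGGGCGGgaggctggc
Col1a2, chr6:4505368-4505617, plus strand: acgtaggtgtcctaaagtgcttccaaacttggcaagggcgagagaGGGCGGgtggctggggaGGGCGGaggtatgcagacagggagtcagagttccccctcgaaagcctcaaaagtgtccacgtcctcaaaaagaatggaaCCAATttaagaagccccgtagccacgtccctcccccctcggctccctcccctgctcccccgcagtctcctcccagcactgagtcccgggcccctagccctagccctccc
Serpinh1, chr7:99353240-99353489, minus strand: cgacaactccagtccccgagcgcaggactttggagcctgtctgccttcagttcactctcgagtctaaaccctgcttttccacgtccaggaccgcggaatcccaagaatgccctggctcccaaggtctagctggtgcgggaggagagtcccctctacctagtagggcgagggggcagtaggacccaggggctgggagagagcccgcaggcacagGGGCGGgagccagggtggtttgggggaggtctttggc
The Loxl4 window held 3 GC boxes, that of Col1a2 held 2 GC boxes and 1 CCAAT box, and that of Serpinh1 held 1 GC box, with 0 overlapping matches in each. TATAAA and TGANTCA were in none of these 3 windows. Of all 32851 RefSeq windows of this length, 32.7% held a GC box, 33.8% a CCAAT box, 12.4% TATAAA and 6.75% TGANTCA. A match is a description of letters only. RefSeq windows were available for 40 of the 57 members.

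Sparc, Fn1, Col1a1 and Pcolce were the most abundant members, and 20 of the 57 averaged at least 10 FPKM. A further 10 averaged between that level and 0.5 FPKM, the mean over all 6 libraries that a gene needed to be tested. The other 27, of which 25 were collagen chains, lay under it and were not tested. Among these, 20 averaged under 0.1 FPKM and 13 were listed at 0 in at least 1 library. They include the chains of cartilage collagen (Col2a1, Col9a1, Col9a2, Col9a3, Col11a1 and Col11a2) and the membrane-spanning collagens Col13a1, Col17a1, Col23a1 and Col25a1. The 3 annotated chains Col6a6, Col19a1 and Col26a1, had no row in the table.

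**Figure D1:**
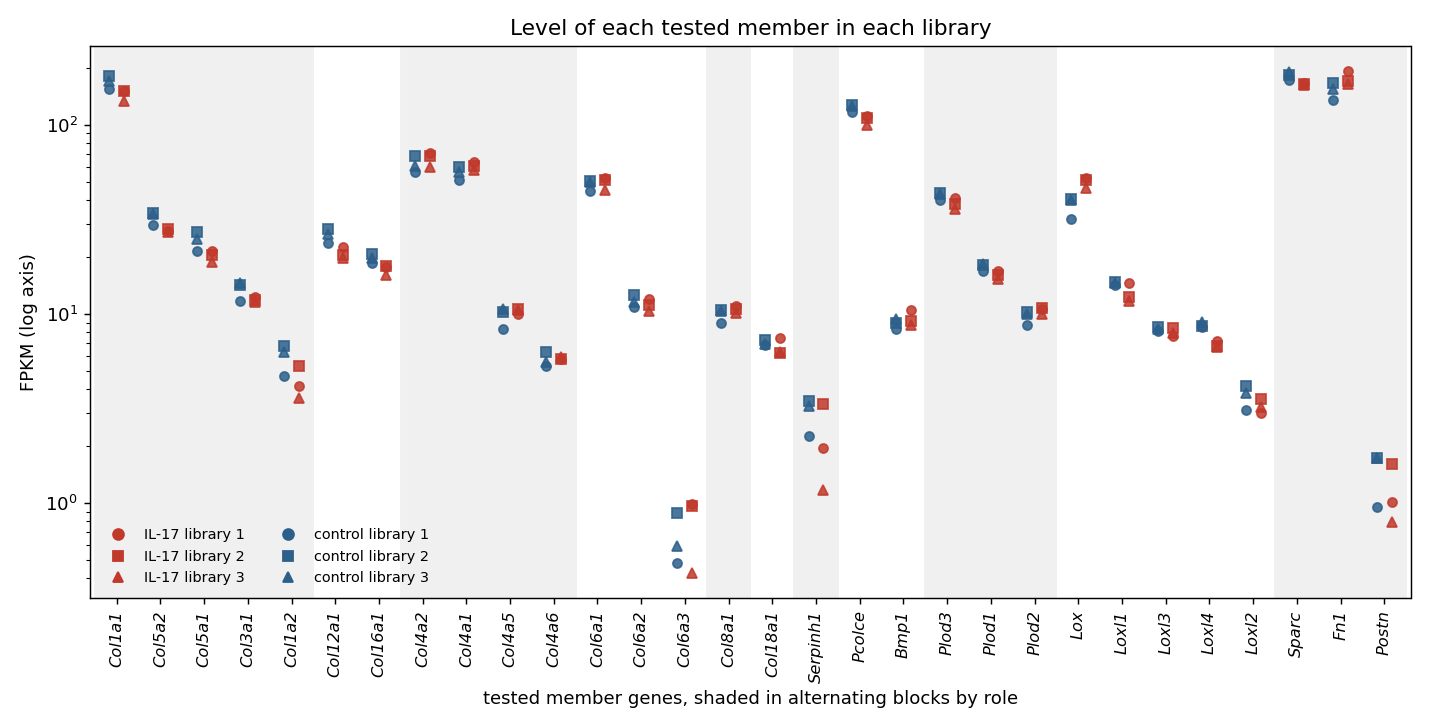
FPKM of the 30 tested members in each library on a log axis, grouped by role in alternating shaded blocks, with blue for control and red for IL-17 libraries. Col1a1 (132 to 181 FPKM) lies far above its partner chain Col1a2 (3.61 to 6.77 FPKM), and Lox is the one member whose IL-17 libraries all lie above the controls.

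Of the 30 tested members, 1 passed the test and 29 did not, which is 0 higher and 1 lower. Called here means that limma on log2(FPKM + 1) gave a p under 0.05 once adjusted over all 12953 tested genes (Benjamini-Hochberg). Across those genes 1.95% were called (0.996% lower and 0.95% higher), so 1 of 30 is near the background and is not a result about the group. The members' median difference was -0.13 on the log2 scale, beside 0.02 over all tested genes. In 9 of the 30 every IL-17 library lay below every control library, and in 1 every IL-17 library lay above. Over all tested genes the shares were 10.9% and 13.3%, and 24.2% for either. An unadjusted p under 0.05 was found for 10 of the 30 and for 16.7% of all tested genes.

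**Figure D2:**
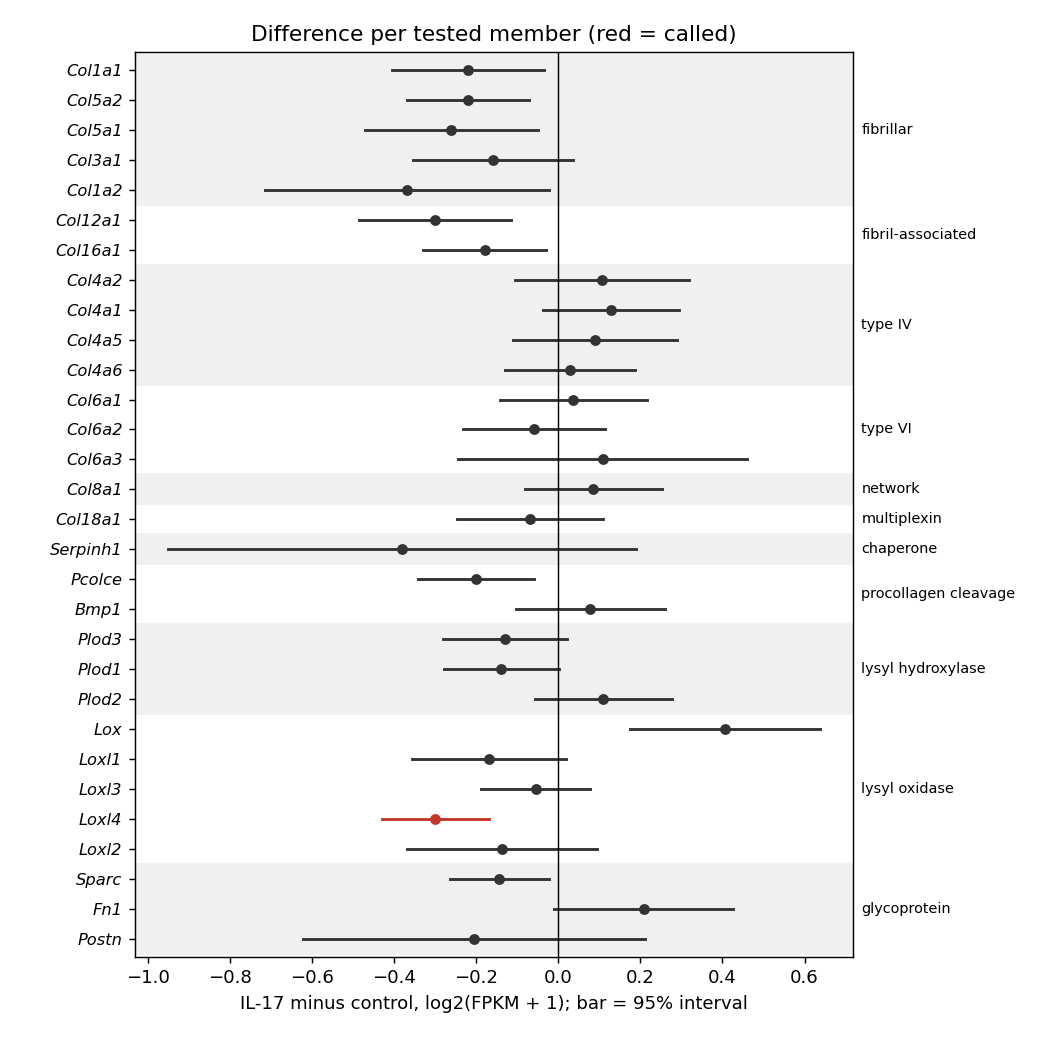
Difference between IL-17 and control libraries for each tested member on the log2(FPKM + 1) scale, with the 95% interval from limma. Points left of 0 are lower with IL-17; Loxl4, in red, is the one called member, and the intervals of the 4 tested type IV chains include 0.

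The lysyl oxidases held the called member and the member with the largest positive difference, in opposite directions. Loxl4 (ENSMUSG00000025185) lies on chromosome 19 from 42593982 to 42612813 on the minus strand (GRCm38). It stood at 7.21, 6.74 and 6.72 FPKM in IL-17 libraries 1, 2 and 3 and at 8.49, 8.62 and 9.02 FPKM in control libraries 1, 2 and 3. All IL-17 values were below all control values. The group means were 6.89 ± 0.278 and 8.71 ± 0.279 FPKM (SD, n = 3 each), which is -0.30 on the log2 scale (SE 0.06; limma adjusted p = 0.0447). That call was lost when any single library was left out, with adjusted p from 0.0564 without IL-17 library 1 to 0.197 without IL-17 library 2 by limma. It was also lost with all genes kept (0.0808), TPM scaling (0.0928) or no variance trend (0.0586). Over all 19 alternatives its adjusted p by limma ran from 0.00739 to 0.227.

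Lox, the founding lysyl oxidase, lies on chromosome 18 from 52516067 to 52529867 on the minus strand. Its values were 52.3, 50.6 and 46.0 FPKM after IL-17 and 31.8, 40.2 and 40.1 FPKM in controls. The IL-17 libraries were all above the controls, with control library 1 the lowest. Lox differed by 0.41 on the log2 scale (SE 0.10, 95% interval 0.18 to 0.64) and was not called (limma adjusted p = 0.0997). Loxl1, which is needed for elastic fibres, stood at 14.5, 12.2 and 11.7 FPKM after IL-17 and 14.2, 14.7 and 14.5 FPKM in controls. IL-17 libraries 2 and 3 were below the controls and library 1 was among them. Loxl3 stood at 7.65, 8.40 and 7.91 FPKM after IL-17 and 8.07, 8.57 and 8.36 FPKM in controls, and its groups overlapped. Loxl2 ran from 3.005 to 3.54 FPKM after IL-17 and from 3.09 to 4.16 FPKM in controls, also with overlap. The differences of Loxl1, Loxl3 and Loxl2 were -0.17, -0.06 and -0.14 on the log2 scale, and none was called. The ratio of Lox to Loxl4, described without a test because these 2 genes were picked on their values, was 7.25, 7.51 and 6.86 with IL-17 and 3.75, 4.67 and 4.45 in controls.

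The 5 tested fibrillar chains had lower mean levels with IL-17, and none passed the test. Their differences were all negative, with 95% intervals that excluded 0 for Col1a1, Col1a2, Col5a1 and Col5a2 before adjustment over genes; the smallest adjusted p among them was 0.148. The mesenchymal markers Acta2, Cd34 and Vim were lower with IL-17 in the same libraries. Thy1 and Pdgfra of the same list went the other way, by 0.38 and 0.16 on the log2 scale. Their IL-17 values all lay above the controls, and neither was called. Of the 9 tested genes of that list, 5 had differences below 0 and 4 above. The part of these markers in the fibrillar differences was not tested. Col1a1, the main chain of type I collagen (ENSMUSG00000001506, chromosome 11 from 94936224 to 94953042, plus strand), stood at 150.2, 149.9 and 132 FPKM after IL-17 and 153, 181 and 170.5 FPKM in controls. The groups did not overlap, but IL-17 library 1 and control library 1 were close. Its difference was -0.22 (SE 0.08, 95% interval -0.41 to -0.04; limma adjusted p = 0.224). Col5a2, a chain of the type V collagen that starts fibrils, stood at 27.5, 28.1 and 27.2 FPKM after IL-17 and 29.5, 33.9 and 33.7 FPKM in controls. Its partner Col5a1 stood at 21.4, 20.4 and 18.8 FPKM after IL-17 and 21.5, 27.1 and 24.8 FPKM in controls. For both type V chains the IL-17 values lay below the controls, and control library 1 was nearest to them. The log2 differences were -0.22 (SE 0.06) and -0.26 (SE 0.09). Col3a1, the type III chain, averaged 11.9 ± 0.383 FPKM after IL-17 and 13.5 ± 1.55 FPKM in controls (n = 3 each), with overlap. Col5a3, Col11a1, Col11a2, Col2a1, Col24a1 and Col27a1 were under the level needed for a test, Col27a1 just under it with a mean of 0.482 FPKM.

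Type I chains were unequal in every library. Col1a2, whose product joins paired Col1a1 chains in the usual type I helix, stood at 4.16, 5.29 and 3.61 FPKM after IL-17 and 4.70, 6.77 and 6.27 FPKM in controls. Col1a1 was 36.1, 28.3 and 36.7 times as high as Col1a2 in the IL-17 libraries and 32.6, 26.7 and 27.2 times in the controls, in FPKM. Serpinh1 was low as well, at 1.95, 3.36 and 1.18 FPKM after IL-17 and 2.25, 3.45 and 3.28 FPKM in controls. Postn, a matricellular protein gene, stood at 1.011, 1.62 and 0.795 FPKM after IL-17 and 0.952, 1.72 and 1.73 FPKM in controls. For these 3 genes, singled out after their values were seen, IL-17 library 2 and control libraries 2 and 3 were the higher ones, and the groups overlapped. Their differences of -0.37 (SE 0.15), -0.38 (SE 0.24) and -0.21 (SE 0.18) were not called. By contrast, the type V chains were of like level, with Col5a2 at 1.25 to 1.45 times Col5a1 over the 6 libraries.

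**Figure D3:**
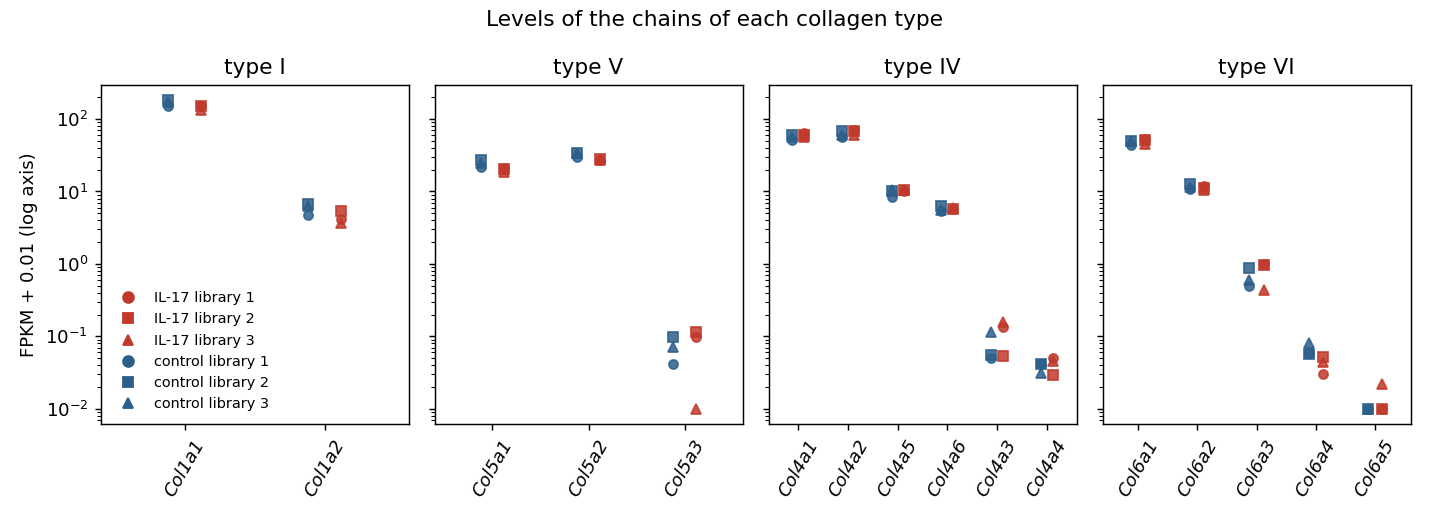
FPKM plus 0.01 (log axis) of the chains of collagen types I, V, IV and VI in each library, with blue for control and red for IL-17; chains listed at 0 sit at 0.01. Col4a1 and Col4a2 are nearly level, while Col1a2 lies far below Col1a1 and Col6a3 far below Col6a1 in all 6 libraries.

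Fibril-associated collagens lie on the surface of fibrils, and 2 of the 8 in the table were tested. Col12a1, which links fibrils to other matrix, stood at 22.6, 20.5 and 19.8 FPKM after IL-17 and 23.6, 28.2 and 26.6 FPKM in controls. Col16a1 stood at 17.7, 18.0 and 16.1 FPKM after IL-17 and 18.6, 20.6 and 19.8 FPKM in controls. Neither had overlapping groups, and control library 1 was the lowest control for both. The log2 differences were -0.30 (SE 0.08) for Col12a1 and -0.18 (SE 0.06) for Col16a1, with limma adjusted p-values of 0.122 and 0.223.

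The 4 tested type IV chains had small positive differences, and none passed the test. Col4a1 and Col4a2 lie head to head on chromosome 8, and their RefSeq starts (11312826 for Col4a1 on the minus strand, 11312805 for Col4a2 on the plus strand) overlap by 22 bases. That stretch is printed because it carries the start of both genes, on the plus strand of GRCm38.p6 with a GC box in capitals.
Col4a1 and Col4a2 shared start, chr8:11312805-11312826: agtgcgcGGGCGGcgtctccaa
Col4a1 stood at 63.7, 60.7 and 57.4 FPKM after IL-17 and 50.8, 59.4 and 56.1 FPKM in controls. Col4a2 stood at 71.0, 68.4 and 59.5 FPKM after IL-17 and 56.0, 67.8 and 60.7 FPKM in controls. Groups overlapped for both, and both had their lowest value in control library 1 and their highest in IL-17 library 1. The ratio of Col4a2 to Col4a1 stayed between 1.04 and 1.14 over the 6 libraries. Differences were 0.13 for Col4a1 (95% interval -0.04 to 0.29) and 0.11 for Col4a2 (-0.11 to 0.32), and neither was called. Col4a5 stood at 10.0, 10.6 and 10.5 FPKM after IL-17 and 8.36, 10.2 and 10.5 FPKM in controls, and Col4a6, its neighbour on the X chromosome, at 5.78, 5.78 and 5.94 FPKM, and at 5.29, 6.27 and 5.57 FPKM in the same order. Both overlapped between groups, and the sign of both turned when control library 1 was left out. Col4a3 and Col4a4, the chains typical of kidney and lung basement membranes, averaged 0.0843 and 0.03 FPKM.

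The ratio of fibrillar to type IV chains did not overlap between groups, with less spread within a group than either sum had. Summed over the fibrillar chains the level was 216.9, 216.9 and 194.7 FPKM after IL-17 and 222.0, 264.3 and 251.0 FPKM in controls. Summed over type IV chains it was 150.6, 145.5 and 133.5 FPKM after IL-17 and 120.5, 143.8 and 133.0 FPKM in controls. Col1a1 alone made up most of the fibrillar sum, and Col4a1 with Col4a2 most of the type IV sum, in every library. Control library 1 was low in both sums, and the ratio taken within a library was even. That ratio was 1.44, 1.49 and 1.46 with IL-17 and 1.84, 1.84 and 1.89 in controls, or 1.46 ± 0.0253 against 1.86 ± 0.0274 (SD, n = 3 each). Lung marker sums were also set apart by group (66.2 to 172.1 FPKM with IL-17, 5.45 to 63.2 FPKM in controls). Among the mesenchymal markers, Acta2, Cd34 and Vim were lower in every IL-17 library than in any control, while Thy1 and Pdgfra were higher. The part of the lung and mesenchymal markers in the ratio was not tested. A ratio within a library is not changed by a single scaling factor per library, but normalization that shifts genes unequally, such as quantile normalization, can change it. The ratio carries no test because it was formed after the values were seen and from chains none of which was called, so it is a description of these 6 libraries. The ratio of Col1a1 to Col4a1 alone, also without a test, split the same way. It was 2.36, 2.47 and 2.31 with IL-17 and 3.02, 3.05 and 3.04 in controls. Lox relative to Col1a1 was likewise even within groups, at 0.348, 0.338 and 0.348 with IL-17 and 0.207, 0.222 and 0.235 in controls.

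**Figure D4:**
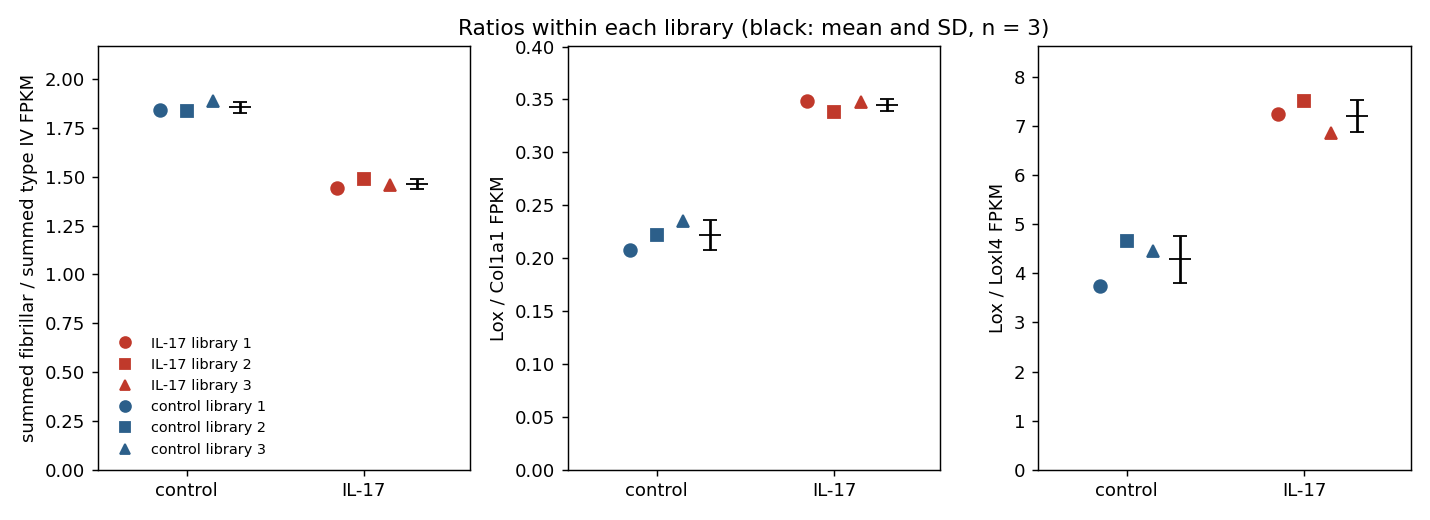
Ratios of FPKM within each library: summed fibrillar over summed type IV chains, Lox over Col1a1, and Lox over Loxl4, with the mean and SD of 3 libraries in black. In each panel the groups do not overlap, with the fibrillar to type IV ratio at 1.44 to 1.49 for IL-17 and 1.84 to 1.89 for control. Both Lox ratios had to separate, since Lox was higher and Col1a1 and Loxl4 lower in every IL-17 library.

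A shift common to the members ran through single libraries. Control library 1 was the lowest of the 3 controls for all 30 tested members, against 47.4% of all tested genes. IL-17 library 3 was the lowest of its group for 25 of the 30, against 38.1% of all tested genes. What sets these libraries apart was not tested. Without control library 1, the limma differences were -0.29 for Col1a1, -0.28 for Col5a2 and -0.37 for Col12a1, and 0.30 for Lox, and none was called.

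Type VI chains overlapped between groups. Col6a1 stood at 52.5, 50.7 and 44.9 FPKM after IL-17 and 44.4, 50.0 and 49.9 FPKM in controls. Col6a2, which lies near it on chromosome 10, stood at 12.02, 11.1 and 10.4 FPKM after IL-17 and 10.9, 12.6 and 11.6 FPKM in controls. Col6a3, the largest chain of the same filament, stood at 0.986, 0.962 and 0.429 FPKM after IL-17 and 0.484, 0.882 and 0.593 FPKM in controls. No group was set apart in these values. The differences of 0.04, -0.06 and 0.11 on the log2 scale were not called, with 95% intervals of -0.14 to 0.21, -0.23 to 0.11 and -0.25 to 0.46. Col8a1, a short-chain network collagen, and Col18a1, the source of endostatin, differed by 0.09 and -0.07 and overlapped between groups as well.

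The enzymes that act before cross-linking differed little. Plod1 stood at 16.9, 16.1 and 15.2 FPKM after IL-17 and 16.9, 18.2 and 18.3 FPKM in controls, and its groups met without overlap. Plod3, which also adds sugar to hydroxylysine, stood at 41.0, 38.2 and 36.0 FPKM after IL-17 and 39.7, 43.7 and 42.8 FPKM in controls. Plod2, the hydroxylase of the telopeptides, stood at 10.6, 10.8 and 9.95 FPKM after IL-17 and 8.68, 10.2 and 9.94 FPKM in controls. Neither Plod3 nor Plod2 was set apart by group, and the log2 differences of Plod1, Plod3 and Plod2 were -0.14, -0.13 and 0.11. Pcolce stood at 111, 108 and 99.6 FPKM after IL-17 and 116, 126 and 125 FPKM in controls. All IL-17 values of Pcolce were below the controls, with a difference of -0.20 (SE 0.06; limma adjusted p = 0.159), while Bmp1, the proteinase it helps, differed by 0.08 (SE 0.08). Shared exonic bases limit these values where reads cannot be assigned by strand: Plod3 shares 11.7% of its exonic bases with the opposite-strand gene Znhit1, and Loxl3 11.6% with Htra2.

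Among the glycoproteins, Sparc, which binds collagen and calcium, stood at 166, 164 and 161 FPKM after IL-17 and 172, 182 and 189 FPKM in controls. Fn1, fibronectin, on which collagen fibrils are laid down, stood at 192, 169.6 and 163 FPKM after IL-17 and 134, 166 and 153 FPKM in controls. Sparc was below the controls in all IL-17 libraries, and Fn1 overlapped through control library 2. The differences were -0.14 (SE 0.05; limma adjusted p = 0.224) and 0.21 (SE 0.09; limma adjusted p = 0.32). Dcn and Lum, proteoglycans of connective tissue that bind fibrils, were under the level needed for a test. Dcn stood at 0.280, 0.215 and 1.51 FPKM after IL-17 and 0.356, 0.0643 and 0.278 FPKM in controls. Its high value was in IL-17 library 3, where Myh11, a smooth muscle myosin, was at 3.80 FPKM against 0.0121 to 0.149 FPKM in the other 5 libraries. Actg2 (7.54 FPKM), Des (4.32 FPKM) and Cnn1 (2.28 FPKM) were also highest in that library, while Smtn was lowest there at 29.3 FPKM. The 5 smooth muscle markers together summed to 35.8 to 47.3 FPKM after IL-17 and 35.4 to 41.9 FPKM in controls, most of it Smtn. Their part in the Dcn value was not tested.

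Over 7 lists of genes around collagen, 2 of 119 tested genes were called, or 1.68%, which is near the 1.95% of all tested genes and is not a result about these lists. An unadjusted p under 0.05 was found for 22.7% of them, beside 16.7% of all tested genes. Of 26 tested genes of collagen modification, folding and export, 0 were called at an adjusted p under 0.05 by limma and 3 had an unadjusted p under 0.05, with a median difference of -0.04. Pcolce2, a relative of Pcolce, and the chaperone gene Calr had differences of -0.27 and -0.22 and adjusted p-values of 0.0768 and 0.0936 by limma. Of 24 tested genes of TGF-beta signalling, a main inducer of collagen genes, 0 were called by limma and 9 had an unadjusted p under 0.05, with a median of 0.04. In that list Ccn2, a matricellular target gene, stood at 3.10, 2.97 and 2.67 FPKM after IL-17 and 3.90, 6.61 and 5.29 FPKM in controls, with no overlap and a difference of -0.66 (SE 0.15; limma adjusted p = 0.0815). Ltbp1, which tethers latent TGF-beta to the matrix, differed by -0.39 (SE 0.08; limma adjusted p = 0.0529). Both of these were lower, but 14 of the 24 differences were above 0 and 10 below. Of 20 tested transcription factor genes known to act on collagen promoters, 0 were called by limma and 2 had an unadjusted p under 0.05, with a median of 0.04. Those 2 were Scx, which differed by -0.24 (limma adjusted p = 0.0584), and Cebpd, which differed by 0.38 (limma adjusted p = 0.0613). Of 7 tested collagen receptors, 0 were called and 2 had an unadjusted p under 0.05 (median 0.01). Of 21 other matrix glycoproteins and proteoglycans, 0 were called and 7 had an unadjusted p under 0.05 (median -0.05).

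Both calls in these lists concerned the basement membrane and collagen breakdown. Agrn, the basement membrane proteoglycan agrin, stood at 15.4, 14.2 and 13.6 FPKM after IL-17 and 18.5, 21.1 and 20.5 FPKM in controls. It was lower in every IL-17 library and fell by 0.45 on the log2 scale (SE 0.07; limma adjusted p = 0.0228), 1 of 10 tested basement membrane genes, whose median was -0.06. The Agrn call was lost when IL-17 library 2 or 3, or control library 2 or 3, was left out, and also with all genes kept. Timp1, an inhibitor of the metalloproteinases that cut collagen, rose from 110.5 ± 1.32 to 156.4 ± 9.26 FPKM (log2 difference 0.50, SE 0.06; limma adjusted p = 0.00549). It was the 1 call among 11 tested genes of collagen breakdown, whose median was 0.07, and it was called with each library left out in turn.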

How the data were processed

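Gene expression was measured by poly(A) RNA sequencing in 6 libraries, grouped by the treatment label of each sample. The authors deposited FPKM values per Ensembl gene, per the file headers; fastp, StringTie, edgeR and the build mm10 are named, without version or role, per the submitters' processing notes. For the aligner, the annotation release and the use of strand in quantification: not given in the sources used here. Since FPKM are relative, very abundant transcripts can lower the rest. The table holds no counts, so the depth is unknown; FPKM summed to 365534 to 383093 per library and 20959 to 21633 genes were above 0.

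GENCODE vM21 (GRCm38, the mm10 assembly) gave symbols and coordinates for 26525 identifiers; the other 70 had no match. Values were analysed as log2(FPKM + 1), which understates changes of low genes. Genes with a mean of at least 0.5 FPKM were tested with limma 3.58.1 in R 4.3.3 (mean-variance trend, group as the sole term) with Benjamini-Hochberg adjustment, at a threshold of 0.05. The fit was tried on simulated data in which each value varied independently, so shifts shared by many genes of a library were not covered. Values in every library were planned for the called members, the 12 of highest mean, and those with groups that do not overlap at a mean of at least 2 FPKM. The type IV, type VI, lysyl oxidase and lysyl hydroxylase genes with a mean of at least 0.5 FPKM were added. Loxl2 was given as a range instead. Col1a2, Serpinh1, Postn and Dcn were printed in every library outside this rule. Members, lists and rules were chosen with earlier results of these data known. Alternatives changed the pseudocount, filter, scaling, variance model, gene set, replicate block and libraries. Of the columns of values, 0 were left unused.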

Additional observations from a re-analysis of the deposited data

How the results depend on the processing

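The count of called members was 1 (Loxl4) in the main comparison, and the same gene alone was called in 7 of 19 alternatives. It was 0 with no filter, with TPM, without the variance trend, without IL-17 library 1 and control library 3 together, and over the range from 0 to 0 when 1 library was left out. With array weights it was 7 (1 higher, 6 lower), of which 2 were fibrillar chains (0 in the main comparison) and 4 were processing members (1 in the main comparison). The processing members alone had 0 calls in the same settings in which all members had 0. Calls among the pathway lists were 2 in the main comparison, 1 with no filter, 5 with median-ratio scaling, 5 with quantile normalization, 18 with array weights and 8 among protein-coding genes alone, and ran from 1 to 4 with 1 library left out. Over all tested genes the count was 252, against 135 with no filter, 1015 with array weights and 160 without IL-17 library 1 and control library 3, and ran from 117 to 254 with 1 library left out.

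The replicate numbers did not pair the libraries: deviations of same-numbered libraries correlated at -0.14, 0.08 and 0.21 across genes, and 3 of 6 libraries correlated best with their own number. With the replicate number as a block, 80 genes were called over all, 0 among the members, 0 among the processing members and 0 among the pathway lists, so neither Agrn nor Timp1 was called there; Timp1 was called in the other 18 of 19 alternatives and Agrn in 12.

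Of 30 tested members, 27 kept their sign in all alternatives run. The others changed sign in some: with 1 library left out, Col6a1 ran from -0.0197 (no control library 1) to 0.101 and was -0.0082 without IL-17 library 1. In the same fits Col4a5 ran from -0.0035 to 0.147 and Col4a6 from -0.0168 to 0.0882, both lowest without control library 1, and Col4a6 was -0.00067 with quantile normalization. No cause was tested for any of these changes. Scaling moved the median difference of all genes from 0.02 to 0.01 (median-ratio, TPM) and -0.0037 (quantile). Without counts, the depth that limits the low chains is unknown.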
